A study of Homo sapiens with 24 samples.

Results

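The 9 genes followed here belong to the AP-1 transcription factor and the immediate early response, and were measured in 8 groups of breast cancer cultures: the FOS family members FOS, FOSB, FOSL1 and FOSL2, the JUN family members JUN, JUNB and JUND, and the immediate early genes EGR1 and IER3. They were matched by the gene symbol in the annotation of the array, and each gene was read from the probe set that carried its symbol alone, taking the one with the highest mean over all 24 arrays where there were several. All 9 were found among the 18417 genes measured, and no filter on low values was applied. IER3 had 3 such probe sets, and each of the other genes had 1.

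The cultures came from SUM149PT and SUM190PT, 2 human lines of inflammatory breast cancer, both labelled as negative for the estrogen receptor and as carrying mutant p53. Treatment lasted 48 h, and each line received vehicle, 17β-estradiol at 10 nM, the histone deacetylase inhibitor CG-1521 (so named in the series title), or estradiol plus CG-1521 (the combination), and 3 independent experiments gave 3 arrays per group. SUM149PT stayed in medium with 5% serum and received 7.5 µM CG-1521 in fresh medium, whereas SUM190PT was plated in 2% serum, was without serum from 24 h before treatment, and received 5 µM CG-1521 added to the medium already on the cells. Line, dose, serum and medium change therefore cannot be told apart in any comparison between the lines. Expression is given as the log2 value that the authors computed per probe set, so that a difference of 1 is a 2-fold change, and levels of different genes are not set against each other because each probe set has its own scale.

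AP-1 is a dimer of a FOS family protein with a JUN family protein, or of JUN proteins with each other, that binds the TPA response element of many genes for growth, invasion and inflammation. Growth factors and serum switch on FOS, FOSB, JUNB, EGR1 and IER3 within minutes through MAP kinases, serum response factor and CREB, without new protein synthesis, and the burst usually fades soon after. FOSL1 and FOSL2 lack the strong activation domain of FOS and FOSB and are made later, and FOSL1 is known for high expression in basal-like, invasive breast cancer cells. All values here come from a single time long after treatment began, so they describe the standing level of these genes and not their burst.

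The cultures carried the markers of epithelial cells: EPCAM, CDH1, KRT8, KRT18 and KRT19 lay between 10.13 and 12.58 on every array. The median of the basal keratin KRT5 was 10.28 in SUM149PT and 5.41 in SUM190PT, and that of ERBB2, the HER2 receptor, was 6.95 and 12.35. Medians of the 3 leukocyte markers measured, PTPRC, CD3E and CD14, were 2.97, 4.68 and 5.51 in SUM149PT and 2.85, 4.52 and 4.92 in SUM190PT. The endothelial markers PECAM1, VWF and CDH5 had medians of 4.51, 4.48 and 4.46 in SUM149PT and 5.75, 4.46 and 4.38 in SUM190PT. Among fibroblast markers COL1A1 had the highest median, 7.06 and 7.13, and DCN the lowest, 3.41 and 2.99, with COL3A1 and PDGFRB between. The part of other cells in the results was not tested. Arrays of a group correlated across genes at 0.9946 to 0.996 in SUM149PT and at 0.9807 to 0.9957 in SUM190PT, where the third array of vehicle and that of estradiol stood apart. RNA came from whole cultures, so a gene used by fewer cells and less RNA per cell cannot be told apart.

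The stretch just before the start of 5 genes is shown because 3 of them, FOS, FOSB and EGR1, had their lower levels on the same SUM190PT arrays, and the other 2, FOSL2 and JUN, had their higher levels there. Sequences are from RefSeq on GRCh38.p14, 120 bases ending at the base before the gene's start, on the gene's own strand: FOS at chr14:75278708-75278827 (+), FOSB at chr19:45467876-45467995 (+), EGR1 at chr5:138465359-138465478 (+), FOSL2 at chr2:28392738-28392857 (+) and JUN at chr1:58784048-58784167 (-). Capitals mark the core of the cyclic AMP response element (TGACGT or its complement ACGTCA), a JUN-type AP-1 site (TGACATCA), the TATA element (TATAAA) and CArG boxes, the sites of serum response factor.
FOS: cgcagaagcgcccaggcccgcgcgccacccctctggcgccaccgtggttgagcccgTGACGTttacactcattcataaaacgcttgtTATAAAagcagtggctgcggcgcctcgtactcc
FOSB: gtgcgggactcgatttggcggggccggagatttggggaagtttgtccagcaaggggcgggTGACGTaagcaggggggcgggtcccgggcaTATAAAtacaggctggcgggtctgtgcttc
EGR1: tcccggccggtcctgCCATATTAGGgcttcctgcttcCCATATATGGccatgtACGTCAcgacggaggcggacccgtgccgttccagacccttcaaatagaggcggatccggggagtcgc
FOSL2: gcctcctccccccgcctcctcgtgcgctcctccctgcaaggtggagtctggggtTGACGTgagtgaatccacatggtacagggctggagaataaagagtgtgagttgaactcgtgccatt
JUN: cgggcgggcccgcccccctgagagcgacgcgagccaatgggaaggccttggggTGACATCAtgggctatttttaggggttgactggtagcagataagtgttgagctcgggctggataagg
The core TGACGT, searched on both strands, lay 64 to 59 bases before the start of FOS, 60 to 55 before FOSB, 67 to 62 before EGR1 and 66 to 61 before FOSL2, at a like distance in these 4 genes. It also stood 136 to 131 bases before EGR1 and 87 to 82 before JUND, and 7.1% of 35116 windows of the 250 bases before a gene held it. FOS and FOSB also held TATAAA, at 33 to 28 and 30 to 25 bases, as did JUNB at 31 to 26, against 10.7% of all windows. EGR1 held 2 CArG boxes, CCATATTAGG at 105 to 96 and CCATATATGG at 83 to 74 bases, a motif present in 1.16% of windows. JUN held TGACATCA at 67 to 60 bases, found in 2.37%, and the full element TGACGTCA, which contains the core, was found 200 to 193 bases before JUND and in 1.65% of windows. CCAAT, present in 32% of windows, stood before JUN, JUNB and JUND. The canonical AP-1 site TGACTCA, present in 4.2% of windows, was in none of the 7 members with an entry (0 of 7). These are matches of letters and were not tested as binding sites. Only the 250 bases before each start were searched, so a gene without a match here may hold one farther away. FOSL1 and IER3 are named only.

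CG-1521 split the genes rather than moving them together, and the split was not the same in both lines. FOS and EGR1 fell and JUN and IER3 rose in both lines, FOSL2 fell in SUM149PT and rose in SUM190PT, FOSB fell in SUM190PT, and FOSL1 and JUND rose in SUM149PT. In SUM149PT 4 of the 9 genes rose and 3 fell at an adjusted p under 0.05 (limma, Benjamini-Hochberg over 18417 genes), where 14.4% of all genes rose and 19.9% fell. In SUM190PT 3 rose and 3 fell, against 8.32% and 8.26% of all genes. Arrays with CG-1521 and with vehicle did not overlap for 44.6% of all genes in SUM149PT and 31.5% in SUM190PT. The median change over the 9 genes was -0.13 in SUM149PT, beside a median of -0.002 over all genes, and 0.14 in SUM190PT, beside -0.05.

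**Figure D1:**
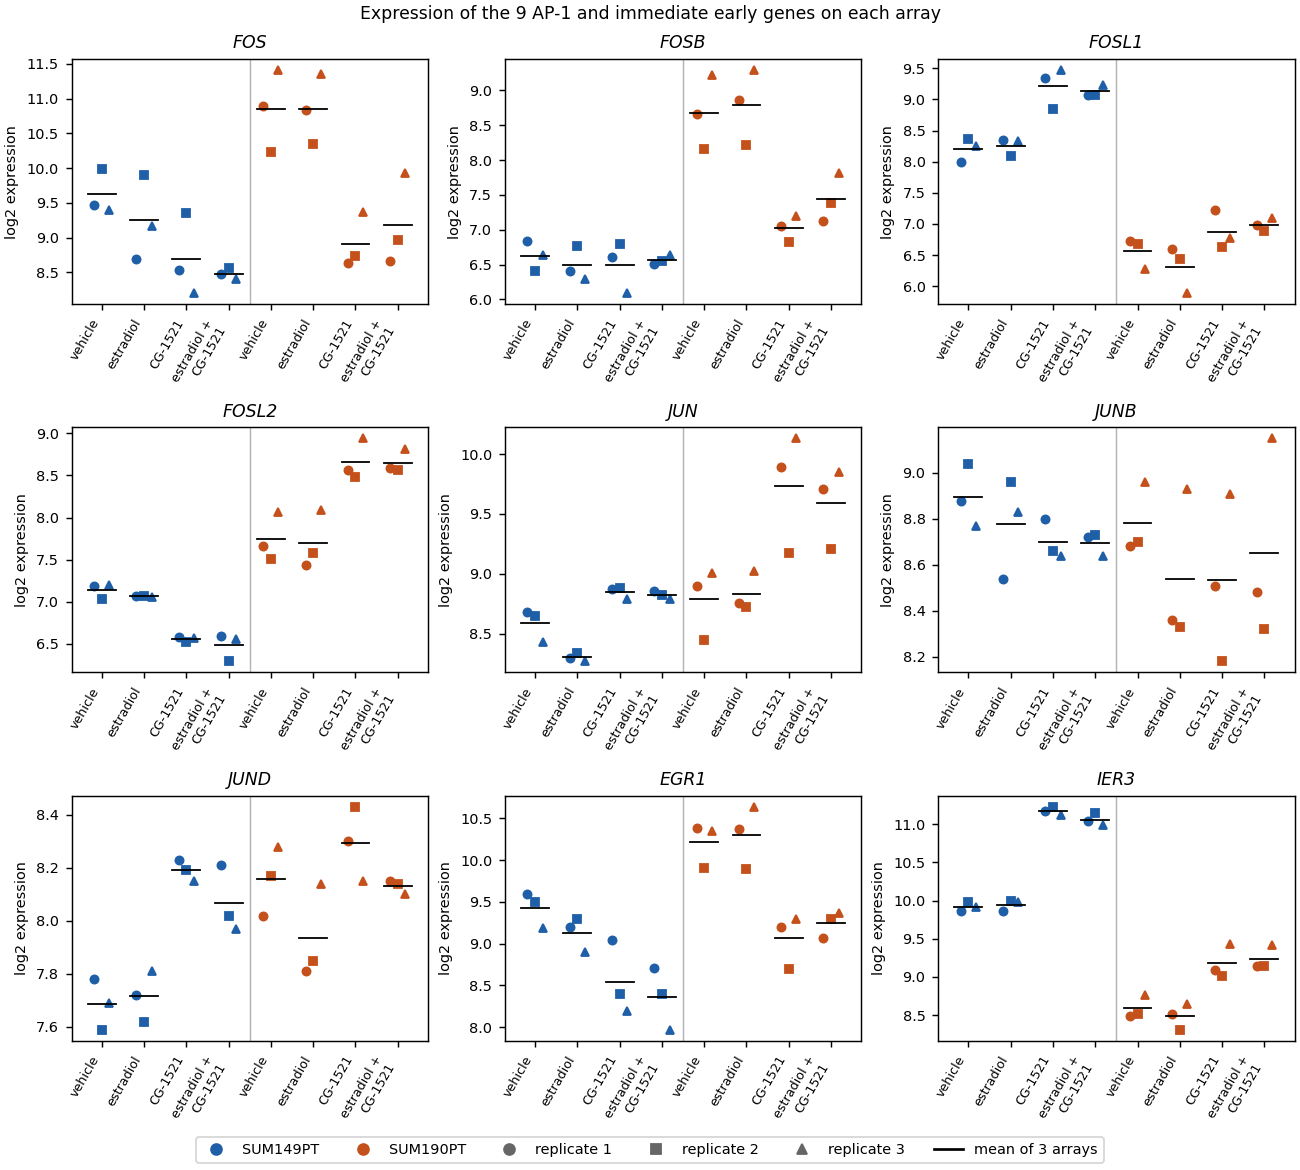
Log2 expression (vertical axes) of the 9 genes on each of the 24 arrays, by treatment, with SUM149PT in blue on the left and SUM190PT in orange on the right of each panel; symbols mark the replicate and the bar is the mean of 3 arrays. FOS, FOSB and EGR1 step down with CG-1521 in SUM190PT, IER3 steps up in both lines, and FOSL2 steps down in SUM149PT and up in SUM190PT.

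FOS, the family's prototype, lies on chromosome 14 (GRCh38, 75278828 to 75282230). In SUM149PT it read 9.47, 9.99 and 9.40 with vehicle and 8.53, 9.35 and 8.20 with CG-1521. All 3 CG-1521 arrays lay below all 3 vehicle arrays, though the second of the former came within a small step of the third of the latter. The change was -0.93 (SE 0.28, adjusted p = 0.0168), a 1.9-fold fall. In SUM190PT the vehicle arrays read 10.90, 10.23 and 11.41 and the CG-1521 arrays 8.63, 8.73 and 9.37, again with no overlap, and FOS fell by 1.93 (SE 0.365, adjusted p = 0.00355), a 3.82-fold fall. The fall in SUM149PT rested on few arrays: without the second vehicle array it was -0.74 (adjusted p = 0.0835), without the first CG-1521 array -0.84 (0.0594), without the third CG-1521 array -0.68 (0.1), and with all 24 arrays in one fit the adjusted p was 0.0623. In SUM190PT the call held in all 15 alternatives, and without the third vehicle and estradiol arrays the change was -1.65.

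FOSB, the closest relative of FOS (chromosome 19, 45467996 to 45475179), fell in SUM190PT. Its SUM149PT arrays read 6.84, 6.41 and 6.63 with vehicle and 6.61, 6.80 and 6.09 with CG-1521. These overlapped throughout, with a change of -0.13 and a 95% interval from -0.47 to 0.22 (adjusted p = 0.614). In SUM190PT FOSB read 8.66, 8.16 and 9.22 with vehicle and 7.05, 6.82 and 7.19 with CG-1521. The groups were apart by nearly a full log2 unit at their nearest arrays, and the change was -1.66 (SE 0.289, adjusted p = 0.00217), a 3.16-fold fall. It was -1.39 without the third vehicle and estradiol arrays and was called in all 15 alternatives.

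EGR1, a zinc finger factor that serum induces through the CArG boxes of its promoter (chromosome 5, 138465479 to 138469303), fell in both lines. SUM149PT arrays read 9.60, 9.50 and 9.19 with vehicle and 9.04, 8.40 and 8.19 with CG-1521. No array overlapped, and the change was -0.89 (SE 0.204, adjusted p = 0.00268). In SUM190PT EGR1 read 10.39, 9.91 and 10.35 with vehicle and 9.20, 8.70 and 9.29 with CG-1521, which gave -1.16 (SE 0.206, adjusted p = 0.00245). The SUM190PT groups were likewise apart, and both calls held in every alternative run, 14 for SUM149PT and 15 for SUM190PT.

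FOSL1, also called FRA1 (chromosome 11, 65892049 to 65900545), moved against FOS. In SUM149PT it read 8.0, 8.37 and 8.26 with vehicle and 9.35, 8.85 and 9.47 with CG-1521, every treated array above every control. The rise was 1.01 (SE 0.14, adjusted p = 2.906e-05), a 2.02-fold change. In SUM190PT the vehicle arrays read 6.73, 6.68 and 6.28 and the CG-1521 arrays 7.22, 6.63 and 6.77. The second CG-1521 array lay inside the vehicle range, and the change was 0.31 with an interval from -0.12 to 0.74 (adjusted p = 0.307).

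FOSL2, also called FRA2 (chromosome 2, 28392858 to 28417317), went opposite ways. In SUM149PT its arrays read 7.18, 7.03 and 7.20 with vehicle and 6.58, 6.52 and 6.57 with CG-1521, a tight step down of -0.58 (SE 0.086, adjusted p = 5.445e-05). In SUM190PT they read 7.66, 7.51 and 8.06 with vehicle and 8.57, 8.48 and 8.94 with CG-1521. Here all treated arrays were the higher ones, and the rise was 0.92 (SE 0.19, adjusted p = 0.00597), and 1.08 without the third vehicle and estradiol arrays. Both calls held in all alternatives run.

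JUN, the partner that FOS proteins bind most readily (chromosome 1, 58780791 to 58784047), rose in both lines. In SUM149PT it read 8.68, 8.65 and 8.43 with vehicle and 8.87, 8.88 and 8.79 with CG-1521. The arrays did not overlap but the step was small, 0.26 (SE 0.08, adjusted p = 0.0175). In SUM190PT JUN read 8.90, 8.45 and 9.01 with vehicle and 9.89, 9.17 and 10.13 with CG-1521, where the second replicate was the lowest of both groups, and the rise was 0.94 (SE 0.237, adjusted p = 0.0172). The SUM149PT call was lost with all 24 arrays in one fit (adjusted p = 0.357), with arrays centred on their median (0.22, 0.055), and without the third vehicle (0.18, 0.104), the first CG-1521 (0.25, 0.0531) or the second CG-1521 array (0.25, 0.0581). The SUM190PT call was lost without the second vehicle (0.78, 0.0799), the first CG-1521 (0.87, 0.0749) or the third CG-1521 array (0.74, 0.0725).

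JUND, the JUN protein of resting cells (chromosome 19, 18279694 to 18281622), read 7.78, 7.59 and 7.69 with vehicle and 8.23, 8.19 and 8.15 with CG-1521 in SUM149PT. The rise of 0.51 (SE 0.086, adjusted p = 0.000212) had no overlap of arrays. In SUM190PT the vehicle arrays ran from 8.02 to 8.28 and the CG-1521 arrays from 8.15 to 8.43, and the change was 0.14 with an interval from -0.12 to 0.40. JUNB, an early gene that can restrain JUN (chromosome 19, 12791486 to 12793315), was not called in either line. Its arrays ran from 8.77 to 9.04 with vehicle and 8.64 to 8.80 with CG-1521 in SUM149PT, a change of -0.20 with an interval from -0.42 to 0.02, and from 8.68 to 8.96 and 8.18 to 8.91 in SUM190PT, a change of -0.25 with an interval from -0.76 to 0.27.

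IER3, an early gene whose protein acts on cell survival and on ERK signalling (chromosome 6, 30743199 to 30744547), had the smallest standard errors of the 9 within SUM149PT. It read 9.87, 9.98 and 9.91 with vehicle and 11.18, 11.23 and 11.12 with CG-1521 there. The groups were more than a log2 unit apart, and the rise was 1.26 (SE 0.077, adjusted p = 4.915e-09), or 2.39-fold. In SUM190PT it read 8.49, 8.52 and 8.76 with vehicle and 9.09, 9.01 and 9.43 with CG-1521, a rise of 0.59 (SE 0.142, adjusted p = 0.014). That call was lost without the second vehicle array (0.55, 0.0549) or the third CG-1521 array (0.46, 0.0603). With the mean of its 3 probe sets the rise was 1.23 in SUM149PT and 0.56 in SUM190PT. The probe sets not used above had the same values as each other on every array, so these are not 3 separate readings.

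The arrays of the combination and of estradiol alone are other arrays than those above and gave a second reading of CG-1521, in the presence of estradiol. Within a line both readings came from the same fit and its estimate of the spread, so they are not independent replications. In SUM149PT 4 genes rose and 3 fell, against 16.5% and 20.4% of all genes, and in SUM190PT again 4 rose and 3 fell, against 12.5% and 13.2%. Arrays of the combination and of estradiol did not overlap for 46.8% of all genes in SUM149PT and 45.6% in SUM190PT. Called in SUM149PT were FOSL1, JUN, JUND and IER3 upward and FOS, FOSL2 and EGR1 downward, and in SUM190PT FOSL1, FOSL2, JUN and IER3 upward and FOS, FOSB and EGR1 downward.

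FOS read 8.69, 9.90 and 9.17 with estradiol and 8.48, 8.56 and 8.40 with the combination in SUM149PT, where the estradiol arrays were widely spread and the change was -0.77 (SE 0.28, adjusted p = 0.0425). That call was lost without the second (-0.45, adjusted p = 0.227) or the third estradiol array (-0.81, 0.0739), and without the first (-0.77, 0.0829), the second (-0.81, 0.0704) or the third combination array (-0.73, 0.105), with quantile normalization (-0.64, 0.0893) and with all 24 arrays in one fit (0.122). In SUM190PT FOS read 10.84, 10.35 and 11.36 against 8.66, 8.97 and 9.93, and the change was -1.66 (SE 0.365, adjusted p = 0.00654). FOSB read 6.40, 6.77 and 6.29 against 6.51, 6.55 and 6.64 in SUM149PT, with full overlap, and 8.86, 8.21 and 9.29 against 7.13, 7.38 and 7.82 in SUM190PT, a change of -1.34 (SE 0.289, adjusted p = 0.00592). EGR1 was 9.20, 9.29 and 8.90 against 8.71, 8.40 and 7.97 in SUM149PT (-0.77, SE 0.204, adjusted p = 0.00721). It was 10.37, 9.90 and 10.64 against 9.07, 9.29 and 9.37 in SUM190PT (-1.06, SE 0.206, adjusted p = 0.0035). In both lines all EGR1 arrays of the combination lay below those of estradiol alone.

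FOSL1 read 8.35, 8.09 and 8.34 with estradiol and 9.08, 9.08 and 9.24 with the combination in SUM149PT, a rise of 0.87 (SE 0.14, adjusted p = 0.00012). In SUM190PT it read 6.60, 6.43 and 5.89 against 6.98, 6.88 and 7.10, and here the groups did not overlap and the rise of 0.68 was called (SE 0.197, adjusted p = 0.0252). This SUM190PT call was lost without the second (0.74, adjusted p = 0.0502) or the third estradiol array (0.47, 0.0793), the first (0.68, 0.068) or the third combination array (0.62, 0.0817), and without the third vehicle and estradiol arrays together (0.47, 0.0516). FOSL2 read 7.07, 7.07 and 7.06 against 6.59, 6.29 and 6.56 in SUM149PT (-0.59, SE 0.086, adjusted p = 4.604e-05) and 7.43, 7.58 and 8.09 against 8.59, 8.56 and 8.81 in SUM190PT (0.96, SE 0.19, adjusted p = 0.00392). The opposite directions of FOSL2 were thus also read with estradiol present.

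JUN read 8.30, 8.34 and 8.27 with estradiol and 8.86, 8.82 and 8.79 with the combination in SUM149PT, a rise of 0.52 (SE 0.08, adjusted p = 8.179e-05) that was called in all 14 alternatives. In SUM190PT it read 8.76, 8.72 and 9.02 against 9.71, 9.21 and 9.85, a rise of 0.76 (SE 0.237, adjusted p = 0.034). The latter call was lost with arrays centred on their median (0.67, adjusted p = 0.0579) and without the first (0.72, 0.0896) or the second estradiol array (0.70, 0.108) or the first (0.70, 0.104) or the third combination array (0.63, 0.121). JUND rose by 0.35 in SUM149PT (SE 0.086, adjusted p = 0.00401), from 7.62 to 7.81 with estradiol to 7.97 to 8.21 with the combination. IER3 read 9.86, 10.00 and 9.98 against 11.04, 11.15 and 10.99 in SUM149PT (1.11, SE 0.077, adjusted p = 1.733e-08) and 8.52, 8.31 and 8.65 against 9.14, 9.14 and 9.42 in SUM190PT (0.74, SE 0.142, adjusted p = 0.00325). JUNB was not called in either line, nor was JUND in SUM190PT.

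**Figure D2:**
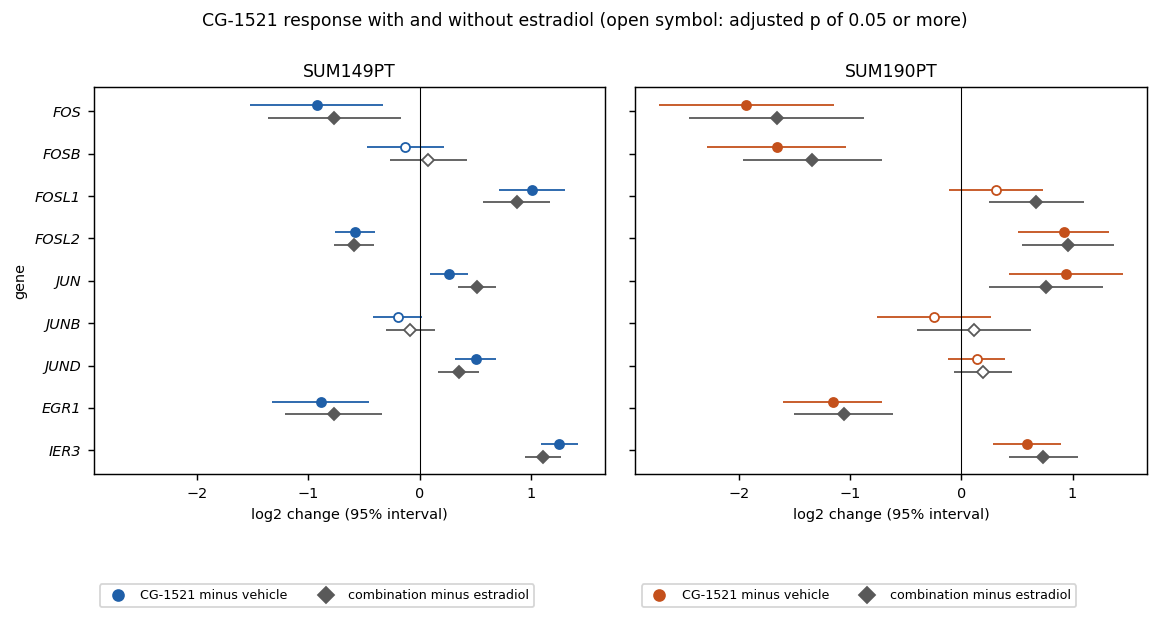
Log2 change with its 95% interval (horizontal axis) for the 9 genes (rows) with CG-1521 against vehicle (circles) and with the combination against estradiol alone (grey diamonds), SUM149PT left and SUM190PT right; filled symbols have an adjusted p under 0.05 and each change compares 3 arrays with 3. FOSL2 lies at -0.58 and -0.59 in SUM149PT and at 0.92 and 0.96 in SUM190PT.

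Estradiol alone moved none of the 9 genes past the threshold. In SUM149PT limma called 0 of 9, as it did 0% of all genes, and at an unadjusted p under 0.05 there were 845 genes, with JUN as the 1 member. JUN read 8.68, 8.65 and 8.43 with vehicle and 8.30, 8.34 and 8.27 with estradiol, all of them lower, a change of -0.28 (SE 0.08) with an adjusted p of 0.989. Arrays of these groups did not overlap for 10.2% of all genes. In SUM190PT 0 of 9 were called where 0.00543% of all genes were, and 0 members were among the 4531 genes with an unadjusted p under 0.05. The 95% intervals of the 9 changes stayed between -0.97 and 0.35 in SUM149PT and between -0.79 and 0.79 in SUM190PT, which is the size of change these arrays leave possible. The combination against CG-1521 alone also gave 0 of 9 in each line, where 0% of all genes were called in SUM149PT and 0% in SUM190PT, and 0 members were among the 1156 and 889 genes with an unadjusted p under 0.05. Its intervals ran from -0.81 to 0.41 in SUM149PT and from -0.65 to 1.06 in SUM190PT.

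The interaction asks whether CG-1521 changed a gene by another amount when estradiol was present. It called 0 of 9 in SUM149PT, where 0% of all genes were called, and 0 of 9 in SUM190PT, where 0.516% were. At an unadjusted p under 0.05 there were 1046 genes in SUM149PT, among them JUN (0.26, SE 0.114, adjusted p = 0.86), and 4159 in SUM190PT with 0 members. The intervals reached from -0.69 to 1.00 in SUM149PT and from -0.91 to 1.39 in SUM190PT, so an interaction as large as the CG-1521 change of some members would not have been detectable.

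The lines already differed in these genes under vehicle. With SUM149PT minus SUM190PT in one fit over 24 arrays, FOSL1 (1.65, SE 0.182, adjusted p = 6.722e-08) and IER3 (1.33, SE 0.113, adjusted p = 1.018e-09) were higher in SUM149PT. Lower in SUM149PT were FOSB (-2.06, SE 0.252, adjusted p = 3.348e-07), FOS (-1.23, SE 0.359, adjusted p = 0.00662), EGR1 (-0.79, SE 0.225, adjusted p = 0.00549), FOSL2 (-0.61, SE 0.152, adjusted p = 0.00193) and JUND (-0.47, SE 0.102, adjusted p = 0.000488). That is 2 higher and 5 lower, beside 24.5% and 22.1% of all genes. JUN (-0.20, adjusted p = 0.41) and JUNB (0.12, adjusted p = 0.656) were not called. The FOS difference was -0.95 without the third SUM190PT vehicle array (adjusted p = 0.0507). Of the genes named above as switched on by serum, FOS, FOSB and EGR1 were lower in SUM149PT, IER3 was higher and JUNB was not called. SUM149PT was the line kept in serum, and the part of serum was not tested.

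Set in order over the 8 groups, the mean of FOS was highest in SUM190PT with vehicle (10.85 ± 0.59, SD, n = 3) and with estradiol (10.85 ± 0.51), which did not differ beyond their spread, then in SUM149PT with vehicle (9.62 ± 0.33). SUM149PT with estradiol (9.25 ± 0.61), SUM190PT with the combination (9.19 ± 0.66) and with CG-1521 (8.92 ± 0.40), and SUM149PT with CG-1521 (8.70 ± 0.59) and with the combination (8.48 ± 0.08) followed, each within the spread of its neighbour. FOSB kept all 4 SUM190PT groups, from 8.79 ± 0.55 with estradiol to 7.02 ± 0.19 with CG-1521, above the 4 SUM149PT groups, which lay between 6.49 ± 0.25 and 6.63 ± 0.22. FOSL1 and IER3 had the opposite arrangement, with the lowest SUM149PT group means, 8.21 ± 0.19 and 9.92 ± 0.06, both with vehicle, above the highest SUM190PT ones, 6.98 ± 0.11 and 9.23 ± 0.16. FOSL2 ran from 8.66 ± 0.24 in SUM190PT with CG-1521, the same to 2 decimals as with the combination, through 7.74 ± 0.29 with vehicle, to 6.48 ± 0.16 in SUM149PT with the combination.

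The difference in the CG-1521 response itself was tested over both lines, with the same vehicle and CG-1521 arrays as above. It was called for 3 genes, FOSB (1.54, SE 0.357, adjusted p = 0.00365) and IER3 (0.67, SE 0.16, adjusted p = 0.00441) upward and FOSL2 (-1.50, SE 0.215, adjusted p = 3.58e-05) downward, as SUM149PT minus SUM190PT, where 9.01% of all genes were called upward and 11.6% downward. FOSB fell in SUM190PT and had no called change in SUM149PT, IER3 rose further in SUM149PT, and FOSL2 moved opposite ways. These 3 calls held in all 20 alternatives. The mean of FOSB in SUM149PT with vehicle, 6.63, was already below that in SUM190PT with CG-1521, 7.02. The part of the starting level was not tested. FOS (1.01, interval -0.05 to 2.06, adjusted p = 0.17), FOSL1 (0.70, adjusted p = 0.0566), JUN (-0.68, adjusted p = 0.0698), JUND (0.37, adjusted p = 0.0742), EGR1 (0.27, interval -0.39 to 0.93, adjusted p = 0.594) and JUNB (0.05, adjusted p = 0.926) were not called, so this fit did not show the larger fall of FOS in SUM190PT to differ between the lines. FOSL1 came to be called without the second SUM149PT CG-1521 array (0.89, adjusted p = 0.018), the third SUM190PT vehicle array (0.84, 0.029) or the first SUM190PT CG-1521 array (0.87, 0.0202). JUN was called without the third SUM190PT vehicle array (-0.79, 0.0492) or the second SUM190PT CG-1521 array (-0.96, 0.00329), and JUND without the latter (0.44, 0.0434) or the first SUM190PT vehicle array (0.44, 0.0355).

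**Figure D3:**
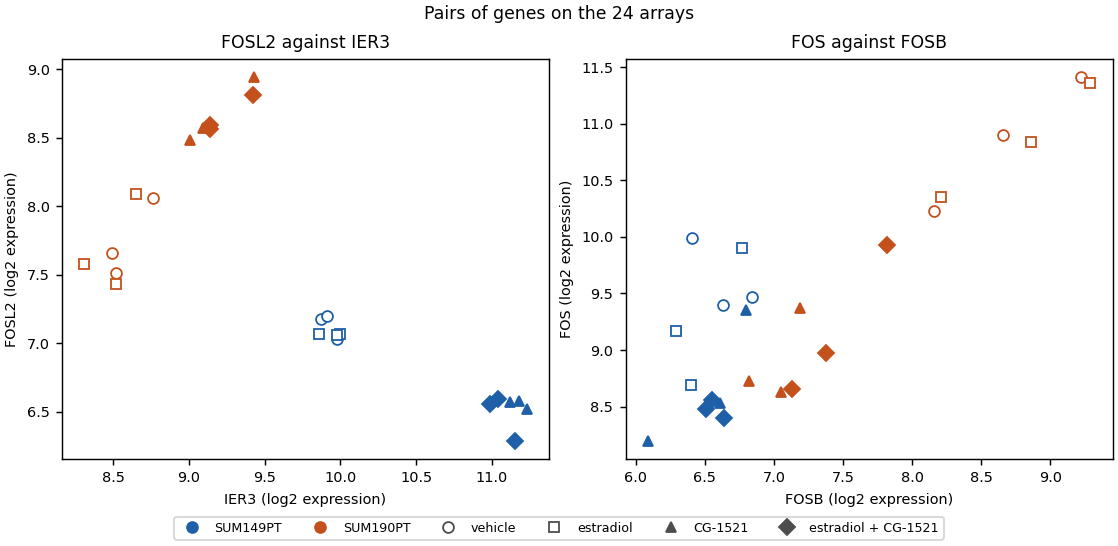
Log2 expression of FOSL2 against IER3 (left) and of FOS against FOSB (right) on the 24 arrays, SUM149PT in blue and SUM190PT in orange, with the treatment given by the symbol. FOSL2 falls as IER3 rises in SUM149PT (r = -0.97) and rises with it in SUM190PT (r = 0.97), and FOS follows FOSB in SUM190PT (r = 0.98).

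Correlations between the genes are given as a description over the 12 arrays of a line, which share 4 treatments and 3 experiments. FOS and FOSB had a Pearson r of 0.98 in SUM190PT and 0.42 in SUM149PT, FOS and EGR1 0.95 and 0.70, and FOSB and EGR1 0.97 and 0.25. FOSL2 and IER3 had 0.97 in SUM190PT and -0.97 in SUM149PT, and FOSL2 and JUN 0.92 and -0.79. FOSL1 and IER3 had 0.93 in SUM149PT and 0.59 in SUM190PT. After each group's mean was taken away, so that treatment no longer entered, FOS and FOSB had 0.92 in SUM190PT and 0.55 in SUM149PT. FOS and EGR1 then had 0.75 in SUM190PT but only 0.14 in SUM149PT. JUNB and IER3 went from 0.27 to 0.90 in SUM190PT and from -0.46 to 0.70 in SUM149PT. FOSL1 and IER3 turned to -0.34 in each line, and FOSL2 and JUN had -0.16 in SUM149PT and 0.71 in SUM190PT. FOSL2 and IER3 had -0.72 in SUM149PT and 0.81 in SUM190PT.

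In SUM190PT the arrays with the third replicate number tended to read highest in these genes. The labels do not say if a number marks the same experiment in every group. The third replicate had the highest value in all 4 groups for 6 of the 9 genes, FOS, FOSB, FOSL2, JUN, JUNB and IER3, whereas 4.18% of all genes had it so. EGR1 had it in 3 of 4 groups, JUND in 2 and FOSL1 in 1. In SUM149PT this held for 0 of the 9 genes and for 1.35% of all genes. The third replicates with vehicle and with estradiol are the SUM190PT arrays that stood apart, and without them CG-1521 against vehicle kept 6 calls among the 9 genes in that line. JUNB, for example, read 8.96, 8.93, 8.91 and 9.15 on the third arrays of the 4 groups and 8.18 to 8.70 on the others.

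The 2 genes most like each member were sought over 24 arrays, with each value centred on the mean of its line. They were CA12 (r = 0.93) and EPHB4 (0.92) for FOS, CYP4Z1 (0.94) and NR4A1 (0.93), another immediate early gene, for FOSB, and GUSB (0.91) and GATA3 (0.90) for EGR1. PHLDA2 (0.91) and TALDO1 (0.91) were nearest to FOSL1, and ETS2 (0.95), an ETS factor that MAP kinases activate, and B3GNT5 (0.94) to FOSL2. JUN was nearest to DEDD2 (0.94) and to ATF3 (0.93), a stress-induced bZIP factor that can pair with JUN. KLF10 (0.82) and AGRN (0.81) were nearest to JUNB, GALNS (0.89) and POLD4 (0.88) were nearest to JUND, and TOM1 (0.97) and ATP9A (0.96) to IER3.

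Around these genes, 5 lists were read under CG-1521 against vehicle: other bZIP partners of AP-1, other immediate early genes, feedback genes of MAP kinase signalling, MAP kinases and serum response factors, and known AP-1 targets. The counts of every list stand beside 14.4% of all genes up and 19.9% down in SUM149PT. In SUM190PT these shares were 8.32% and 8.26%. No list was tested as a set. Of 11 measured bZIP partners (13 listed), 3 rose and 1 fell in SUM149PT, and 3 rose and 1 fell in SUM190PT, with medians of 0.21 and 0.36 beside -0.002 and -0.05 over all genes. ATF3 rose by 0.85 (SE 0.094) in SUM149PT and 2.70 (SE 0.52) in SUM190PT, and MAFG, a small MAF protein, by 0.95 (SE 0.084) and 1.36 (SE 0.12). JDP2, which pairs with JUN and represses, fell by 0.99 (SE 0.13) in SUM190PT. NFE2L2, the oxidative stress factor NRF2, rose by 0.69 in SUM190PT but was not called without the second vehicle (0.56, adjusted p = 0.0663), the first CG-1521 (0.55, 0.0726) or the third CG-1521 array (0.65, 0.0513). In SUM149PT MAFF (0.31) lost its call without the first vehicle (0.21, 0.0947) or the second CG-1521 array (0.29, 0.0532). CREB1 (-0.23) lost it without the second (-0.20, 0.146) or the third vehicle (-0.20, 0.133), or the first (-0.17, 0.188) or the third CG-1521 array (-0.24, 0.076).

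Known AP-1 targets leaned upward in SUM149PT: 10 of 16 measured (18 listed) rose and 2 fell, with a median of 0.51. MMP1, a collagenase and the textbook AP-1 target, rose by 2.85 (SE 0.211), HBEGF, a ligand of the EGF receptor, by 2.60 (SE 0.166), CXCL8, the neutrophil chemokine, by 2.03 (SE 0.124) and HMOX1, which degrades heme and also answers to NRF2, by 1.55 (SE 0.15). In SUM190PT 4 rose and 1 fell, with a median of 0.19 that was 0.08 without the first vehicle array, 0.10 without the second and 0.13 without the third CG-1521 array. HMOX1 rose by 3.27 (SE 0.309), CXCL8 by 2.14 (SE 0.27) and HMGA1 by 0.83 (SE 0.203), and CCND1, cyclin D1, fell by 0.64 (SE 0.114). HMGA1 was not called without the first CG-1521 array (0.67, adjusted p = 0.0764). The CG-1521 response, SUM149PT minus SUM190PT, differed upward for 5 of the 16 targets and downward for 3, beside 9.01% and 11.6% of all genes. Among these, MMP1 differed by 2.80 (SE 0.264, adjusted p = 2.181e-07) and HMOX1 by -1.72 (SE 0.369, adjusted p = 0.00193). Leaving out the third SUM190PT vehicle and estradiol arrays gave 6 targets up and 1 down in that line, and 2 fell without the third CG-1521 array.

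Feedback genes, which MAP kinase signalling switches on and which then damp it, numbered 11 of 11 measured. In SUM149PT 5 rose and 2 fell, with DUSP5 (1.55, SE 0.103) and DUSP6 (1.25, SE 0.142), both ERK phosphatases, and SPRY2 (0.70, SE 0.096) and SPRY4 (0.68, SE 0.108) the largest, all upward. In SUM190PT 2 rose and 1 fell: DUSP5 rose by 1.35 (SE 0.197), SPRED2 fell by 1.01 (SE 0.153), and ERRFI1, an inhibitor of the EGF receptor, rose by 0.99 (SE 0.309). The ERRFI1 call was lost without the first (0.82, adjusted p = 0.122) or the second vehicle array (0.85, 0.157), or without the first (1.15, 0.0642), the second (1.04, 0.0705) or the third CG-1521 array (0.78, 0.158). In SUM149PT ERRFI1 was 1 of the 2 that fell (-0.54, SE 0.112). The response, SUM149PT minus SUM190PT, differed upward for 4 of the 11 genes and downward for 1, beside 9.01% and 11.6% of all genes. The downward 1 was ERRFI1 (-1.53, SE 0.35, adjusted p = 0.0033). The medians were 0.20 in SUM149PT and 0.005 in SUM190PT, where the sign turned with the arrays used: it was -0.05 without the second vehicle array, -0.01 without the third and -0.12 without the third CG-1521 array, and up to 0.07 without the first CG-1521 array.

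Of 13 measured MAP kinases and serum response factors (17 listed), 1 rose and 4 fell in SUM149PT, and 4 rose and 0 fell in SUM190PT, with medians of -0.12 and 0.14. The SUM149PT median was -0.05 without the first vehicle or the first CG-1521 array, and that of SUM190PT 0.24 without the third CG-1521 array. ETS2 fell by 0.90 (SE 0.097) and ETS1 by 0.54 (SE 0.092) in SUM149PT, as did MAPK8, which codes for JNK1 (-0.44, SE 0.087), and MRTFB, a partner of serum response factor (-0.35, SE 0.109). In SUM190PT ETS2 rose by 0.98 (SE 0.236) and ETS1 by 0.96 (SE 0.262), and ELK3 (0.57) and ELK4 (0.41), which bind beside serum response factor, were the others called. The response, SUM149PT minus SUM190PT, differed upward for 1 of the 13 genes and downward for 4, beside 9.01% and 11.6% of all genes. Among these, the difference was -1.88 (SE 0.268, adjusted p = 3.327e-05) for ETS2 and -1.50 (SE 0.293, adjusted p = 0.000834) for ETS1, the same sign as for FOSL2. The SUM190PT calls were fragile: without the second vehicle array 1 gene rose, 1 fell without the first vehicle array, and without the third CG-1521 array 0 rose, when ETS2 stood at 0.83 (adjusted p = 0.0593), ETS1 at 0.74 (0.102), ELK3 at 0.47 (0.0543) and ELK4 at 0.34 (0.0667). ETS2 was also lost without the second vehicle (0.84, 0.0648) or the first CG-1521 array (0.93, 0.0575), ETS1 without the second (0.96, 0.0721) or the third vehicle array (0.86, 0.0722), and ELK4 without the second vehicle array (0.37, 0.0643). In SUM149PT MRTFB was lost without the second (-0.28, 0.0914) or the third vehicle (-0.32, 0.0654) or the third CG-1521 array (-0.29, 0.0919), and the count that rose was 2 without the second or the third vehicle array.

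Other immediate early genes did not follow FOS and EGR1 as a group. Of 20 measured (22 listed), 6 rose and 4 fell in SUM149PT, where 14.4% of all genes rose and 19.9% fell. In SUM190PT 3 rose and 4 fell, beside 8.32% and 8.26%. The medians were 0.09 in SUM149PT and -0.09 in SUM190PT. In SUM149PT CCN1 (-1.17, SE 0.102) and CCN2 (-0.63, SE 0.13), secreted matrix proteins, fell, and PHLDA1 (1.09, SE 0.108) and ZFP36 (0.66, SE 0.115), whose protein degrades short-lived mRNAs, rose. In SUM190PT NR4A1, an orphan nuclear receptor, fell by 1.09 (SE 0.192), while IER5 (1.34, SE 0.25), KLF6 (0.96, SE 0.234) and ZFP36 (0.78, SE 0.183) rose. KLF6 was not called without the second vehicle (0.82, adjusted p = 0.068) or the third CG-1521 array (0.76, 0.0621), and ZFP36 without the first (0.68, 0.0646) or the third CG-1521 array (0.66, 0.0551). NR4A1 was also called down in SUM149PT (-0.43, SE 0.12), and CCN2 also in SUM190PT (-0.46, SE 0.107), so both fell in both lines. KLF6 was called up in SUM149PT too (0.51, SE 0.108), so KLF6 and ZFP36 rose in both lines. The count of genes that rose in SUM190PT ran from 1, without the third CG-1521 array, to 5, without the second, and the count that fell was 1 without the first CG-1521 array and 2 without the first or the third vehicle or the third CG-1521 array. The SUM190PT median was 0.05 without the third vehicle array, -0.16 without the first, and -0.03 without the first CG-1521 array, so its sign is not settled. The response, SUM149PT minus SUM190PT, differed upward for 4 of the 20 genes and downward for 3, beside 9.01% and 11.6% of all genes. Among these were CCN1 (-1.76, SE 0.287, adjusted p = 0.000143), IER5 (-1.26, SE 0.276, adjusted p = 0.00231) and PHLDA1 (1.56, SE 0.234, adjusted p = 6.225e-05).

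**Figure D4:**
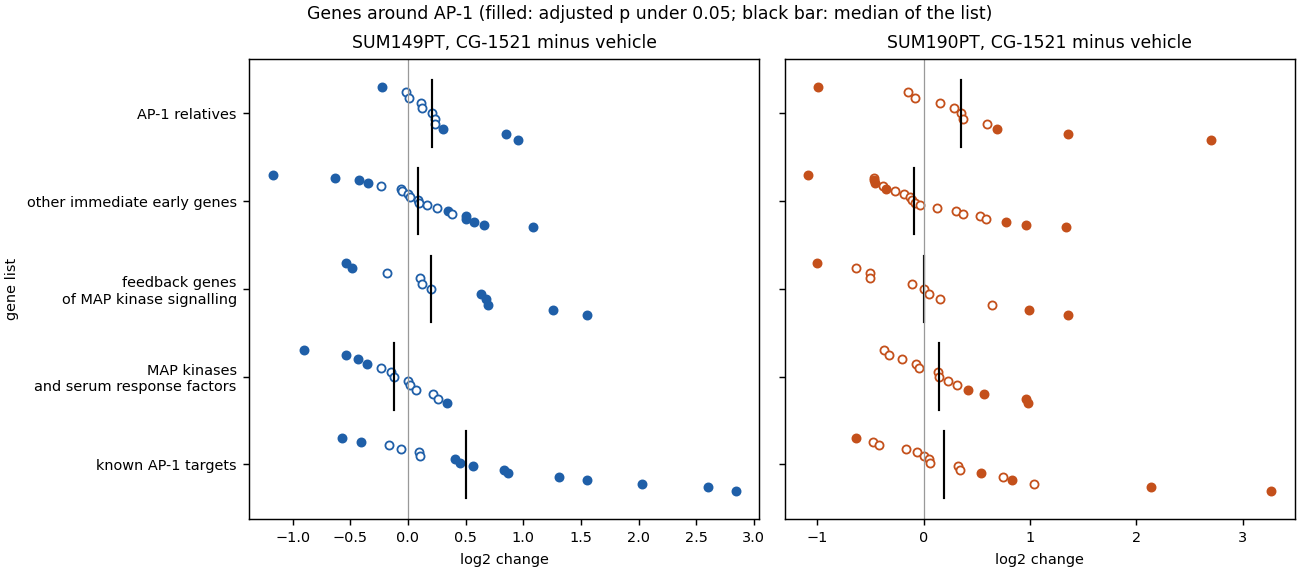
Log2 change with CG-1521 against vehicle (horizontal axis) of each measured gene in the 5 lists (rows), SUM149PT left and SUM190PT right; filled points have an adjusted p under 0.05 and the black bar is the median of the list. Known AP-1 targets have a median of 0.51 in SUM149PT and 0.19 in SUM190PT, and single genes such as HMOX1 at 3.27 lie far from it.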

How the data were processed

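RNA of 24 cultures was hybridized to Affymetrix Human Gene 1.0 ST arrays. The deposited log2 values are RMA output of Affymetrix Expression Console, per the submitters' processing notes (versions not stated); RMA corrects background, normalizes quantiles and summarizes each probe set. The sources used here do not say if the arrays of both lines went through RMA together, and levels set across lines depend on that. Precision is limited by having 3 arrays in a group, from independent experiments. All 24 columns were used.

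Of 33297 probe sets, 19460 had a single gene symbol, 1754 several, and 12083 no entry. They gave 18417 genes, with the highest mean over all arrays deciding for 769 genes with several. Comparisons within a line used limma 3.58.1 (R 4.3.3) on its 12 arrays, and between lines on 24, two-sided, with Benjamini-Hochberg adjustment over 18417 genes and a threshold of 0.05. Simulated data served to check only some of the 12 comparisons. Tables and plots used Python 3.11.15, pandas 2.3.3 and matplotlib 3.10.9.

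Alternatives were quantile normalization or median centring of the arrays, fits on all 24 arrays or on the 2 groups alone, an intensity trend, a replicate block, averaged probe sets, the brighter 50% of genes, and arrays left out. The 9 genes, the 5 lists and the alternatives were chosen with earlier results of these data known. All 9 genes are named in every comparison, of each list the 4 largest called changes per line, and for each gene the 2 most alike; response differences given for list genes were chosen after their values were seen.

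Same-numbered arrays were checked for shared deviations from their group means. All 3 correlations passed 0.1 only for SUM190PT estradiol against vehicle (0.443, 0.229, 0.729) and combination against CG-1521 (0.518, 0.434, 0.502), where a replicate block gave 0 of 9 calls as without it.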

Additional observations from a re-analysis of the deposited data

Results flagged for a closer look

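The CG-1521 response differed between SUM149PT and SUM190PT, by a test of the difference itself, for 3 of the 9 genes. The difference, SUM149PT minus SUM190PT, was 1.535 log2 units for FOSB, -1.502 for FOSL2 and 0.67 for IER3. Dose, serum and medium change differed with the line and cannot be told apart from it.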

How the results depend on the processing

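Of 108 pairs of a gene and a comparison, 37 were called, 29 of them under every alternative run for that comparison, 8 lost the call under some, and 0 changed sign. The count for the difference in CG-1521 response, 3 of 9, moved most. It was 6 with a replicate block, which added FOS (adjusted p = 0.0116), FOSL1 (0.0299) and JUN (0.00252). For CG-1521 against vehicle the check over all genes did not pass 0.1 for all 3 numbers in either line. The labels do not say if the numbers pair these arrays. The count was 5 with quantile normalization (FOSL1 at 0.78, JUND at 0.51). It was also 5 without the third arrays of vehicle and of estradiol in SUM190PT (FOSL1 at 0.84, JUN at -0.79). With single arrays left out it ran from 3 to 5. CG-1521 against vehicle kept 5 to 7 calls in SUM149PT and 4 to 6 in SUM190PT over all alternatives, and the combination against estradiol 6 to 7 and 5 to 7. The comparisons with 0 calls stayed at 0. No rescaling moved the median of all genes by as much as 0.1. The deposited values were already quantile normalized by RMA, so little movement was possible and a shift in total RNA cannot be read from this. A replicate block for the lines under vehicle could not be fitted, since the numbers are nested in the lines. Groups of 3 arrays leave intervals up to about a log2 unit on each side in SUM190PT.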
